A study of Spirodela polyrhiza with 13 samples.

Results

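Fronds of the greater duckweed Spirodela polyrhiza labelled stage 4 were compared with fronds labelled stage 5, using the 3 messenger RNA libraries of stage 4 and the 2 of stage 5, out of 13 libraries in the series. All plants were wild-type, all samples were frond tissue, and all cultures were kept in a climate chamber under long days and moved to fresh SH medium every week; no treatment is labelled. Stages are given by number alone, and nothing in the labels ties the libraries of a stage to separate cultures. All p-values here therefore describe the spread among these libraries, which could be technical. Genes entered the comparison when at least 2 of the 5 libraries reached 1 FPKM (reads on a gene, scaled by its length and by the library total), which held for 15213 of 19623 listed gene IDs.

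Duckweeds are floating flowering plants with a body reduced to a leaf-like frond, which buds off daughter fronds from pouches. As a frond matures it changes from a dividing, expanding organ into a photosynthetic one, and gas-filled spaces called aerenchyma form between or in place of its cells, giving buoyancy and a path for gas. Plant hormones such as ethylene, auxin and abscisic acid are known to govern cell separation, cell death and expansion in such tissues, and the series title names hormones and aerenchyma as its subject. No gene ID in the table comes with a name or product and no annotation was used here. Genes are therefore given by ID with no function, and the frond label could not be checked against marker genes. In whole tissue, fewer cells of a type and less RNA per cell cannot be told apart.

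Whole reads could be recovered from the FPKM values, with gene lengths taken as multiples of 3. These lengths are called coding lengths here, which is an assumption and was not checked. Library totals came to 9278498 to 10650000 reads at stage 4 and 7708200 to 8773837 at stage 5. Resemblance was closest within a stage. Across the 15213 genes, the correlation of log2(FPKM + 1) was 0.979 to 0.987 for the 3 pairs within stage 4 and 0.986 within stage 5, against 0.918 to 0.929 for the 6 pairs between the stages, all as a description across genes. Each library was also placed on the line from the mean of its own stage, computed without it, to the mean of the other stage. The stage 4 libraries lay 1.32% to 9.42% of the way to stage 5, and the stage 5 libraries lay 6.62% and 12.4% of the way to stage 4. None stood between the stages.

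Between stage 4 and stage 5, 7095 genes, 46.6% of those tested, differed at adjusted p under 0.05 (limma on log2(FPKM + 1), Benjamini-Hochberg adjustment over all 15213 genes). As deposited, 2301 genes (15.1%) rose and 4794 (31.5%) fell. Rises spread further than falls: the median called rise was 0.86 on the log2 scale and the top 5% of rises exceeded 2.82, while the median called fall was -0.66 and the lowest 5% of falls lay below -1.33. At least 2-fold, 940 genes rose (6.18%) and 808 fell (5.31%), and at least 4-fold, 287 rose (1.89%) and 33 fell (0.217%). At 2-fold the balance depended on the setting: falls outnumbered rises with pseudocounts of 0.1 FPKM (1015 rose, 1112 fell) and 0.01 FPKM (971 and 1135), with voom on recovered reads (1044 and 1071) and without stage 5 replicate 2 (769 and 908), whereas median ratio scaling of the libraries gave 1234 rises and 430 falls. At 4-fold rises outnumbered falls under every alternative run, with 101, 107 and 87 falls under those pseudocounts and voom. The libraries of the stages did not overlap for 9734 genes (64%), of which 3180 were higher (20.9%) and 6554 lower (43.1%) at stage 5. The median change of all tested genes was -0.18, and scaling each library by its median ratio brought it to 0.0056. Under that scaling 3350 genes rose (22%) and 2874 fell (18.9%), so the excess of falls turned into an excess of rises. Since that scaling raises the stage 5 values of all genes against stage 4, it mainly adds rises and removes falls: 1049 genes were called as rises under it alone, and 2874 of the 4794 falls were still called. Without stage 5 replicate 1 the rises numbered 1528, or 1651 when the same 15213 genes were kept in the fit.

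**Figure D1:**
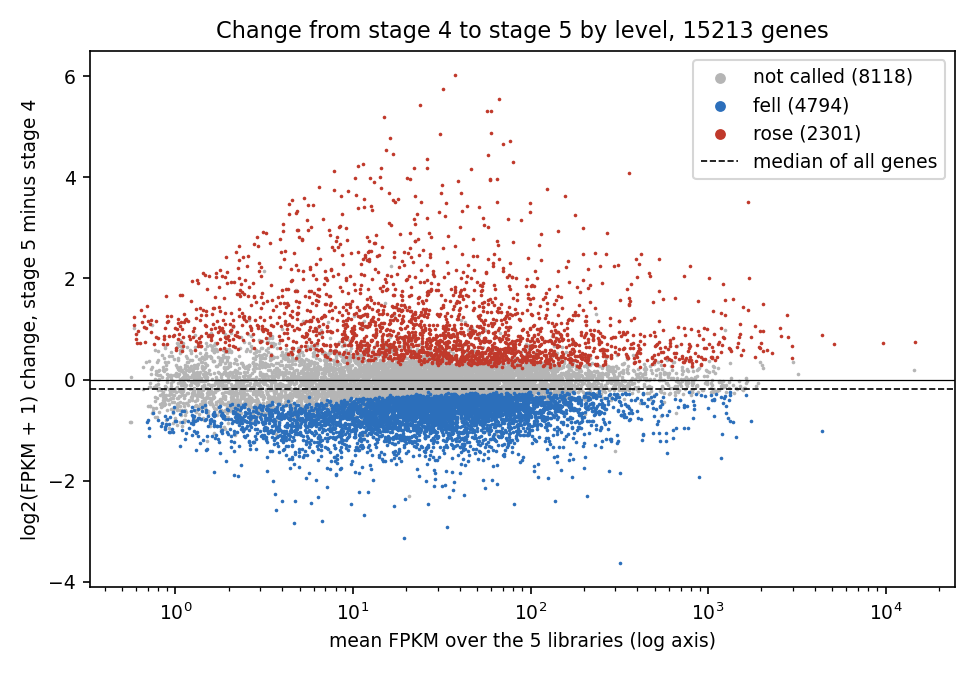
Change from stage 4 to stage 5 for each of 15213 genes (vertical axis, difference in mean log2(FPKM + 1)) against the mean FPKM of the 5 libraries (horizontal axis, log scale); red points rose, blue points fell and grey points were not called. Rises reach 6.02 while falls end at -3.63, and the dashed line marks the median change of -0.18.

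The balance of rises and falls differed between classes of gene level. Among the 140 genes with a mean above 1000 FPKM over the 5 libraries, 42.1% rose and 17.1% fell, and among the 475 genes at 300 to 1000 FPKM 30.1% rose and 21.1% fell. Abundant transcripts thus rose more often than they fell under the deposited scaling. Among the 4631 genes at 10 to 30 FPKM 12.3% rose and 33.8% fell, and among the 4761 genes at 30 to 100 FPKM 14.6% rose and 35.2% fell. In the rarest class, the 191 genes with a mean under 1 FPKM, 18.8% rose and 12% fell. Membership needed 2 libraries at 1 FPKM and a mean under 1 FPKM over 3 stage 4 and 2 stage 5 libraries. These conditions bear unequally on the stages, so the balance in this class cannot be read as a trait of rare genes. With median ratio scaling, 18.0% rose and 20.0% fell at 10 to 30 FPKM, and 23.1% rose and 20.5% fell at 30 to 100 FPKM, so the direction in the latter class turned with the scaling. It turned as well at 1 to 3 FPKM, from 14.4% rises and 18% falls to 16.6% and 10.5%, and at 100 to 300 FPKM, from 21.7% and 29.5% to 34.9% and 16.6%. Above 1000 FPKM it did not turn, with 50.7% rises and 7.86% falls. The error of the change was larger for rare genes, with a median SE of 0.27 on the log2 scale at 1 to 3 FPKM against 0.12 at 100 to 300 FPKM.

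**Figure D2:**
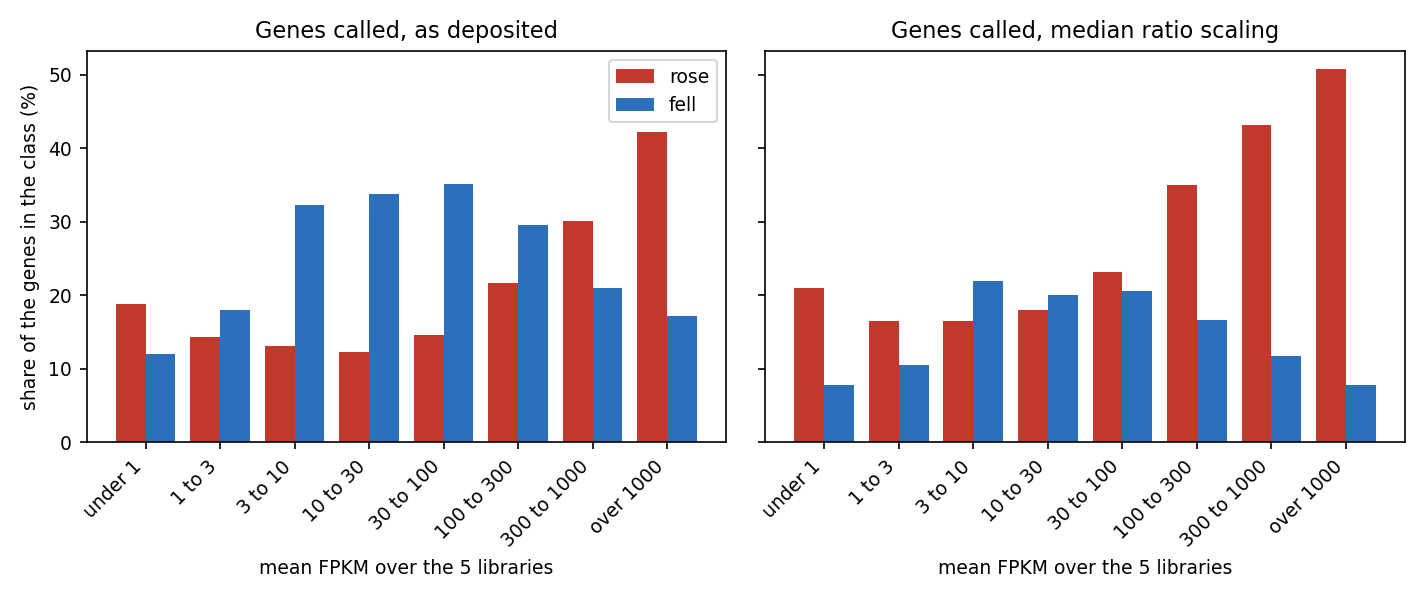
Share of the genes in 8 classes of mean FPKM (horizontal axis) that rose (red bars) or fell (blue bars) from stage 4 to stage 5, in percent of the class, as deposited (left) and after median ratio scaling (right). Above 1000 FPKM rises outnumber falls in both panels, 42.1% against 17.1% and 50.7% against 7.86%.

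The filter admitted some genes through a single stage, so their difference was partly set by the filter. There were 158 tested genes under 1 FPKM in every stage 4 library, of which 141 were called as rises, and 215 under 1 FPKM in every stage 5 library, of which 99 were called as falls. They account for 55 of the 287 rises of at least 4-fold. At the edge of the filter, 341 genes had exactly 2 libraries at 1 FPKM or more, with a median of 1.00 FPKM over the 5 libraries, and 310 genes had exactly 1 such library, with a median of 0.616 FPKM, and were not tested.

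The 10 largest rises started from low levels in all 3 stage 4 libraries, which a ranking by log2 change favours. Spipo0G0190900 (coding length 672 bases) was at 0.474, 0 and 0.978 FPKM at stage 4 and at 79.0 and 107 FPKM at stage 5. Its rise was 6.02 ± 0.27 (SE) on the log2(FPKM + 1) scale (limma, adjusted p = 1.79e-08), the largest on that scale, resting on 10 reads at stage 4 and 1039 at stage 5. Spipo9G0025900 (417 bases) was at 0.509, 0.258 and 0.676 FPKM at stage 4 and at 66.0 and 92.4 FPKM at stage 5. Both genes were close to undetected before stage 5, with means under 1 FPKM at stages 2 and 3 too. Spipo4G0005300 (486 bases) was at 2.62, 1.77 and 3.09 FPKM at stage 4 and at 166 and 157 FPKM at stage 5, a difference of 5.56 ± 0.23 (SE) on the log2 scale (limma, adjusted p = 1.33e-08). Spipo22G0031600 (1128 bases) was at 0.471, 0.287 and 0.416 FPKM at stage 4 and at 57.4 and 60.6 FPKM at stage 5, a difference of 5.43 ± 0.16 (SE) on the log2 scale (limma, adjusted p = 7.49e-10). On the log2(FPKM + 1) scale, which compresses spread near 0 FPKM, the libraries of a stage lay close together for these genes. The gap between stages was many times the spread, which their choice as the largest changes without overlap favours.

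Among the other members of the 10 largest rises, Spipo11G0028200 (708 bases) was at 1.22 to 3.32 FPKM at stage 4 and at 90.2 and 202 FPKM at stage 5. Spipo24G0006700 (705 bases) was at 1.07 to 1.51 FPKM at stage 4 and at 36.6 and 114 FPKM at stage 5. In both genes stage 5 replicate 2 was well above replicate 1, and both replicates lay far above stage 4. Spipo8G0035200 (1683 bases) rose from 2.51 ± 0.215 FPKM (SD, n = 3) to 139 ± 10.7 (SD, n = 2), and Spipo0G0048500 (189 bases) from 4.01 ± 1.41 to 144 ± 29.96 FPKM. Spipo22G0039500 (1434 bases) rose from 0.498 ± 0.476 to 39.4 ± 9.68 FPKM. The log2 changes of these 5 genes lay between 4.78 and 5.32, with adjusted p (limma) from 1.71e-08 to 1.13e-06. Spipo14G0025200 (222 bases) went from 0 reads over stage 4 to 139 reads at stage 5, at 26.9 and 47.7 FPKM. Set against a floor of 3 reads over the stage 4 libraries, its read rate was at least 82.5-fold higher at stage 5. The order of these rises depends on the pseudocount: with 0.1 FPKM the fitted change of Spipo14G0025200 was 8.49 and that of Spipo0G0190900 was 7.86. Without a stage 5 library, Spipo0G0190900, Spipo9G0025900, Spipo22G0031600 and Spipo14G0025200 no longer pass the filter; kept in the fit, their changes were 4.80 to 6.24 and all were called (limma).

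**Figure D3:**
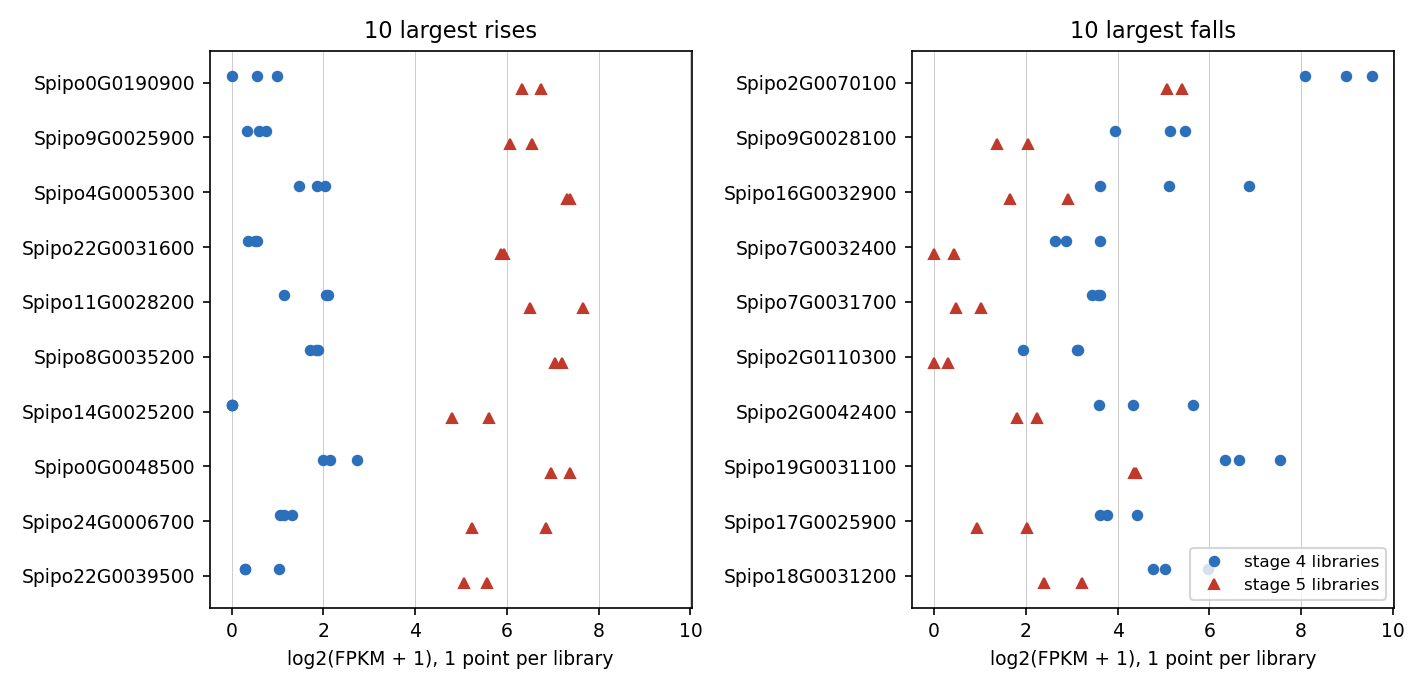
Level of the 10 genes with the largest rises (left) and the 10 with the largest falls (right) from stage 4 to stage 5, as log2(FPKM + 1) on the horizontal axis, with 1 blue circle per stage 4 library and 1 red triangle per stage 5 library. Circles and triangles do not overlap in any of the 20 genes, which the choice of genes required. On this scale the stage 4 circles of the falling genes are mostly spread more widely, by up to 10.3-fold in FPKM.

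The 10 largest falls began from higher levels, as falls of this size on the log2(FPKM + 1) scale require. Their stage 4 libraries mostly varied more on that scale than those of the rises. That scale compresses spread near 0 FPKM. Relative to its mean, the rising gene Spipo0G0190900 varied widely at stage 4 (0.484 ± 0.489 FPKM, SD, n = 3), and the falling gene Spipo7G0031700 little (10.7 ± 0.743 FPKM). Spipo2G0070100 (2283 bases) was at 270, 504 and 747 FPKM at stage 4 and at 32.6 and 41.5 FPKM at stage 5, a difference of -3.63 ± 0.31 (SE) on the log2 scale (limma, adjusted p = 3.52e-06). Spipo9G0028100 (324 bases) was at 14.4, 43.6 and 34.2 FPKM at stage 4 and at 1.60 and 3.17 FPKM at stage 5, a difference of -3.14 ± 0.43 (SE) on the log2 scale (limma, adjusted p = 0.000127). Spipo16G0032900 (315 bases) was at 116, 11.3 and 33.7 FPKM at stage 4 and at 6.59 and 2.17 FPKM at stage 5. Its stage 4 libraries differed by 10.3-fold, and its adjusted p (limma) of 0.0038 became 0.0569 without stage 5 replicate 2. Spipo2G0042400 (1968 bases) was at 48.8, 19.1 and 11.2 FPKM at stage 4 and at 2.50 and 3.71 FPKM at stage 5. This was the least firm of the 10 falls, at -2.50 ± 0.88 (SE) on the log2 scale (limma, adjusted p = 0.0329), and the call was lost without stage 4 replicate 1 (0.108), stage 4 replicate 2 (0.0575), stage 5 replicate 1 (0.149) or stage 5 replicate 2 (0.0922).

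Some of the falling genes were close to undetected at stage 5. Spipo7G0032400 (324 bases) was at 5.24, 6.32 and 11.3 FPKM at stage 4 and at 0 and 0.352 FPKM at stage 5. Its 74 reads at stage 4 faced 1 read at stage 5, a ratio of read rates of 41.6 with a 95% interval (exact, counting error only) of 7.23 to 1664. Spipo2G0110300 (492 bases) was at 7.77, 2.85 and 7.63 FPKM at stage 4 and at 0 and 0.232 FPKM at stage 5, a ratio of 49.99 (8.74 to 1996). Spipo7G0031700 (333 bases), with an ID close to that of Spipo7G0032400, was even among stage 4 libraries, at 10.8, 11.3 and 9.87 FPKM, and stood at 0.3896 and 1.03 FPKM at stage 5 (-2.80 ± 0.30 SE on the log2 scale, limma adjusted p = 2.03e-05). Spipo19G0031100 (279 bases) fell from 121 ± 55.6 FPKM (SD, n = 3) to 19.8 ± 0.345 (SD, n = 2), Spipo18G0031200 (915 bases) from 40.0 ± 19.0 to 6.30 ± 2.89 FPKM, and Spipo17G0025900 (705 bases) from 14.8 ± 4.94 to 2.00 ± 1.52 FPKM. The adjusted p (limma) of these last 3 genes lay between 0.000186 and 0.00283. Stage 4 had the highest mean of the 5 stages for 9 of the 10 largest falls. Choosing genes by the size of their fall from stage 4 favours such a peak. It was also seen in 26 of the 33 falls of at least 4-fold. In the wider set of 808 falls of at least 2-fold, the peak lay in stage 4 for 286 genes and in stage 2 for 364.

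Ranked by the difference in mean FPKM, the largest gains were in other genes. FPKM is divided by gene length, so short genes weigh more in this ranking than in a ranking by reads. No few genes carried the change: the 5 rising genes with the largest gain in share of reads held 7.62% of the summed gain. Spipo23G0000600 (159 bases) was at 12329, 10869 and 11528 FPKM at stage 4 and at 21298 and 17639 FPKM at stage 5, the largest gain in FPKM. Spipo23G0000300 (153 bases) was at 7862, 6566 and 8650 FPKM at stage 4 and at 14223 and 11141 FPKM at stage 5. Spipo23G0000500 (171 bases) was at 4697, 3725 and 3877 FPKM at stage 4 and at 6943 and 6435 FPKM at stage 5. These 3 genes have short coding lengths and IDs close to each other, and their log2 changes were alike at 0.75 (SE 0.17), 0.72 (SE 0.23) and 0.71 (SE 0.16), with adjusted p (limma) of 0.00343, 0.0214 and 0.00279. Quantile normalization, which fixes the value of each rank, took all 3 calls away, with log2 changes of 0.24, 0 and 0.12 and adjusted p (limma) of 0.133, 1 and 0.439. The call of Spipo23G0000300 was also lost without stage 4 replicate 2 (adjusted p = 0.0769, limma) and without stage 5 replicate 1 (0.158).

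A pair of genes with IDs close to each other also stood among the largest gains. Spipo19G0027700 (357 bases) was at 410, 264 and 299 FPKM at stage 4 and at 4327 and 3064 FPKM at stage 5, a difference of 3.51 ± 0.33 (SE) on the log2 scale (limma, adjusted p = 7.92e-06). Spipo19G0027400 (804 bases) was at 2700, 3613 and 3626 FPKM at stage 4 and at 5504 and 6575 FPKM at stage 5, a difference of 0.87 ± 0.17 (SE) on the log2 scale (limma, adjusted p = 0.00113). The former passed from moderate abundance to among the most abundant transcripts, and the latter was abundant throughout. Overlapping or near-identical genes could share reads, and how the counting treated such reads is not stated in the labels.

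The largest losses in FPKM were picked among called genes whose stages did not overlap. Separate ranges and calls were thus required by the choice, and a ranking by FPKM favours abundant genes. Spipo2G0105900 (297 bases) was at 5876, 5405 and 5235 FPKM at stage 4 and at 2278 and 3250 FPKM at stage 5 (-1.01 ± 0.19 SE on the log2 scale, limma adjusted p = 0.00107). Spipo2G0090400 (1458 bases) was at 1610, 1495 and 1722 FPKM at stage 4 and at 491 and 605 FPKM at stage 5 (-1.56 ± 0.17 SE on the log2 scale, limma adjusted p = 2.78e-05). Spipo2G0090400 also took the largest cut in its share of all reads, from 0.235% to 0.0799%. Spipo3G0004100 (408 bases) fell from 1840 ± 103 FPKM (SD, n = 3) to 837 ± 61.2 (SD, n = 2), Spipo1G0064300 (522 bases) from 2097 ± 103 to 1200 ± 164 FPKM, and Spipo7G0025400 (387 bases) from 1258 ± 363 to 338 ± 142 FPKM. The adjusted p (limma) of these 5 falls was 0.0027 or less.

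Among the most abundant genes some moved little. The 3 genes with the highest level whose 95% interval of the log2 change lay within 0.5 of no change were Spipo14G0042700 (537 bases), Spipo26G0001200 (747 bases) and Spipo9G0036000 (756 bases). Spipo14G0042700 was at 13409, 13260 and 14167 FPKM at stage 4 and at 15890 and 15250 FPKM at stage 5, a log2 change of 0.19 with an interval of -0.08 to 0.46. Spipo26G0001200 was at 2735, 3077 and 3541 FPKM at stage 4 and at 3306 and 3402 FPKM at stage 5, a log2 change of 0.11 with an interval of -0.17 to 0.40. The stages overlapped for this gene and not for Spipo14G0042700 or Spipo9G0036000, whose change was 0.22 with an interval of 0.01 to 0.44. These small changes depended on scaling: with median ratio scaling Spipo14G0042700 (0.39, adjusted p = 0.0327, limma) and Spipo9G0036000 (0.42, adjusted p = 0.00668, limma) were called as rises, and with quantile normalization Spipo26G0001200 (-0.36, adjusted p = 0.0271, limma) and Spipo9G0036000 (-0.27, adjusted p = 0.0355, limma) were called as falls.

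Under the deposited scaling, fewer genes held 50% of the summed gain than 50% of the summed loss. Reads on the 2301 rising genes went from 17.0% ± 0.230 of the library total at stage 4 (SD, n = 3) to 31.1% ± 0.0962 at stage 5 (SD, n = 2), and reads on the 4794 falling genes went from 35.7% ± 1.12 to 22.5% ± 0.00568, both chosen on these libraries and given as a description. The 136 genes with the largest gain held 50% of the summed gain, whereas it took 503 genes to reach 50% of the summed loss. The lists differ in size, with 2301 rises and 4794 falls, and a longer list can need more genes. The contrast was not examined under median ratio scaling, where rises outnumbered falls. The largest gain in reads belonged to Spipo22G0039000 (1398 bases), named here after its values were seen, which went from 0.166% to 0.466% of all reads. It was at 1072, 1148 and 1338 FPKM at stage 4 and at 3531 and 3134 FPKM at stage 5 (1.49 ± 0.21 SE on the log2 scale, limma adjusted p = 0.000147).

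Library summaries were compared as well. The 100 genes with most reads held 11.9%, 12.5% and 13.3% of the reads in the stage 4 libraries and 15.8% and 16.2% in the stage 5 libraries. Genes at 1000 FPKM or more numbered 120, 115 and 124 at stage 4 and 144 and 162 at stage 5, while genes at 100 FPKM or more numbered 2147, 2082 and 2171 at stage 4 and 2064 and 2063 at stage 5. The stages did not overlap in any of these measures, with p = 0.2 for each in an exact permutation test (two-sided), the smallest that 3 against 2 libraries allow. The number of genes at 1 FPKM or more overlapped, with 14864 to 14900 at stage 4 and 14886 and 14933 at stage 5 (exact permutation p = 0.4, two-sided).

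Few genes met a strict rule for presence at one stage and absence at the other. Taking at most 3 reads over stage 4 and 5 FPKM or more in both libraries of stage 5, 5 genes qualified, and with the stages exchanged 2 genes did. The limit of 3 reads is easier to meet over the 2 stage 5 libraries than over the 3 of stage 4. Spipo2G0110300, with 89 reads at stage 4 and 1 at stage 5, missed the rule through a stage 4 library at 2.85 FPKM. Besides Spipo14G0025200, the genes detected at stage 5 were Spipo5G0039400 (1677 bases), with 2 reads at stage 4 and 309 at stage 5, Spipo1G0048000 (987 bases), with 2 and 176, Spipo3G0009400 (567 bases), with 2 and 125, and Spipo0G0045300 (549 bases), with 1 and 51. Spipo5G0039400 stood at 11.8 and 10.6 FPKM at stage 5, a ratio of read rates of 275 with a 95% interval (exact, counting error only) of 75.5 to 2282. It had no read at stages 2 and 3 either. The ratios of the other 3 were 157 (42.7 to 1304), 111 (30.2 to 929) and 90.8 (15.6 to 3656). Of the 5 genes, 4 were at 5 FPKM or more in both stage 6 libraries as well. The opposite pair were Spipo7G0032400 and Spipo20G0017500 (441 bases), the latter at 6.26, 6.11 and 6.81 FPKM at stage 4 and at 0.294 and 0.517 FPKM at stage 5, from 83 and 3 reads.

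Whether the change was held in other libraries was asked with stages 3 and 6, which share no library with stages 4 and 5. The calls of both comparisons do share the spread of each gene, which the fit pooled over all stages. Among all tested genes, 67.9% were called between stage 3 and stage 6 (limma, adjusted p under 0.05), 21.8% higher and 46% lower at stage 6. Of the 2301 genes that rose from stage 4 to stage 5, 1893 (82.3%) were higher at stage 6 than at stage 3 and 26 were lower. Of the 4794 that fell, 4053 (84.5%) were lower at stage 6 and 69 were higher. Both shares stood far above those over all genes. For rises of at least 4-fold the share was 98.3% (282 of 287). For falls of at least 4-fold it was 51.5% (17 of 33), near the 46% lower among all tested genes. The difference between the shares of 4-fold rises and 4-fold falls was not tested. With median ratio scaling, 2875 of 3350 rises and 2151 of 2874 falls had the same direction between stages 3 and 6. Under that scaling 9552 of all tested genes were called between stages 3 and 6 (limma, adjusted p under 0.05). Their split by direction is not given here, so these counts lack a background to set them against.

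**Figure D4:**
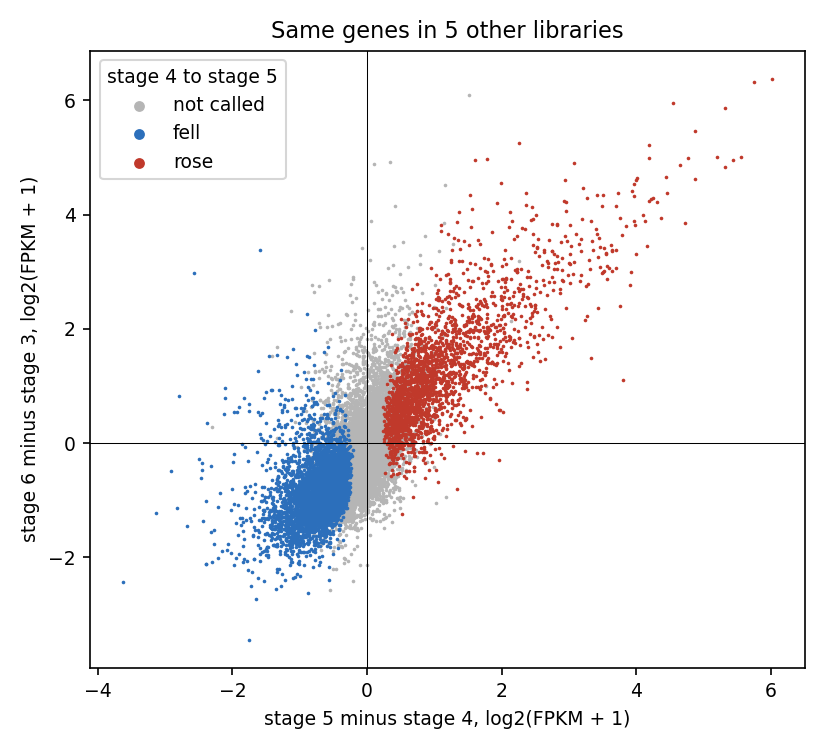
Change from stage 4 to stage 5 (horizontal axis) and from stage 3 to stage 6 (vertical axis), both as differences in mean log2(FPKM + 1), for each of 15213 genes coloured by the call between stages 4 and 5. The axes rest on different libraries; of the red points 1893 of 2301 were called higher at stage 6, and of the blue points 4053 of 4794 were called lower.

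All 10 of the largest rises were also higher at stage 6 than at stage 3, by 4.63 to 6.38 on the log2 scale. Spipo0G0190900 stood at 117 and 98.3 FPKM at stage 6 and Spipo9G0025900 at 122 and 116 FPKM, near or above their stage 5 levels. Spipo22G0031600 was lower at stage 6 than at stage 5, at 34.8 and 37.3 FPKM, and still far above its mean of 0.192 FPKM at stage 3. Over the 287 genes that rose at least 4-fold, the median of the stage means was 3.23, 4.03 and 3.75 FPKM at stages 2, 3 and 4, then 38.6 FPKM at stage 5 and 47.2 FPKM at stage 6.

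The 10 largest falls divided. Spipo2G0070100 (-2.43), Spipo9G0028100 (-1.23) and Spipo7G0032400 (-1.14) were lower at stage 6 than at stage 3 (log2 change in brackets), 5 genes were not called, and 2 were higher at stage 6. Spipo2G0110300 was at 0.442 FPKM on average at stage 3, 6.08 at stage 4, 0.116 at stage 5 and 10.2 at stage 6, so that its level rose and fell more than once, and stage 6 exceeded stage 3 by 2.97 (adjusted p = 2.77e-05, limma). Spipo7G0031700 was at 1.08 FPKM at stage 3, 10.7 at stage 4, 0.708 at stage 5 and 2.52 at stage 6. Its stage 4 level was the exception among the 5 stages. Spipo1G0121700, named after its values were seen, fell from 73.6 ± 30.4 FPKM (SD, n = 3) at stage 4 to 24.4 ± 13.9 (SD, n = 2) at stage 5, with 8.80 FPKM at stage 3 and 97.3 at stage 6 (log2 change from stage 4 to stage 5 -1.59, adjusted p = 0.0117, limma).

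**Figure D5:**
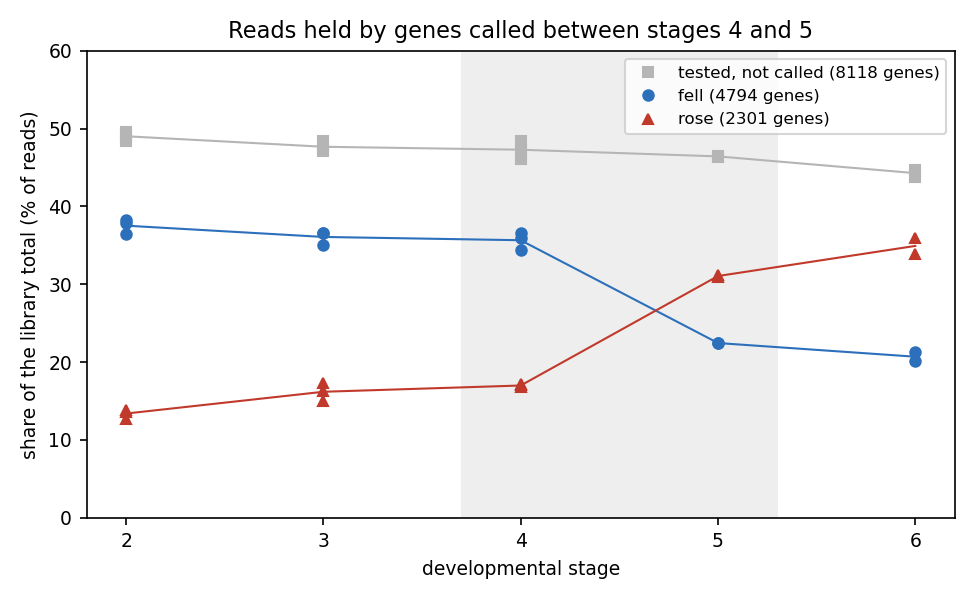
Share of the library total, in percent of reads, held by genes that rose (red triangles), fell (blue circles) or were not called (grey squares) between stages 4 and 5, in each of 13 libraries by developmental stage; lines join stage means and the shaded band marks the compared stages. Rising genes hold 16.2% at stage 3 and 34.9% at stage 6, falling genes 36.1% and 20.7%.

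The levels of stages 2, 3 and 6 did not enter the choice of genes, though their spread entered the fit that called them. There the rising set held 13.4% ± 0.612 of the reads at stage 2 and 16.2% ± 1.19 at stage 3 (SD, n = 3 each) and 34.9% ± 1.49 at stage 6 (SD, n = 2). The falling set held 37.5% ± 0.921, 36.1% ± 0.864 and 20.7% ± 0.838. Stages 2 and 3 thus lay near stage 4, and stage 6 near stage 5, for both sets. Genes tested and not called held 47.3% ± 1.17 at stage 4 and 46.4% ± 0.0925 at stage 5.

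The step from stage 4 to stage 5 was then tested against the mean of the other 3 consecutive steps, gene by gene. This difference was called for 3863 genes (25.4%, limma), with 1344 more upward (8.83%) and 2519 more downward (16.6%) at this step. With median ratio scaling 1943 were more upward and 1563 more downward, so the excess changed direction. Of the genes that rose at least 2-fold 738 of 940 (78.5%) moved up more at this step than at the others, and of those that fell at least 2-fold 721 of 808 (89.2%) moved down more; both sets were chosen on this step. Of the 10 largest rises all 10 passed, and of the 10 largest falls 9 passed, with Spipo2G0042400 (adjusted p = 0.071, limma) as the exception. Spipo23G0000300 (adjusted p = 0.124, limma) and Spipo19G0027400 (0.134) were abundant genes whose rise at this step was not distinguishable from their mean change over the others. The number called was 2029 without stage 5 replicate 1 and 1925 without stage 5 replicate 2, or 2162 and 2002 when the same genes were kept.

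Changing genes differed in the median of the recovered coding lengths. A longer gene has more reads at the same FPKM, and the part of this in the calls was not tested. The median was 1026 bases over all tested genes, 924 bases for rises, 1167 for falls, 822 for rises of at least 4-fold and 969 for falls of at least 2-fold, as a description without a test. Calls were found under every number that precedes the G in the gene IDs. Over these 33 groups of IDs the share of rises ran from 10.4% (number 27, 154 genes) to 22.4% (number 25, 147 genes) around 15.1% of all tested genes, and the share of falls from 22.4% (number 25) to 44.2% (number 27) around 31.5%. Rises of at least 4-fold were 3.79% of the 1320 genes numbered 0 and 3.65% of the 384 genes numbered 23, against 1.89% of all tested genes. The extreme shares of rises and of falls lay under numbers with few genes.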

How the data were processed

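The deposited values are FPKM, made by the authors, 1 column per library; the submitters' processing notes name HISAT2 2.2.1, HTSeq 0.11.3, Trimmomatic 0.39, CASAVA 1.8.2 and Picard 2.25.5. Not given in the sources used here: build, annotation, strand setting and further scaling. Each value depends on the total of its library, so gains of some genes lower others. Whole reads, library totals and coding lengths were recovered from the steps between values. Of 17445 genes, 100% came out whole within 0.001 reads. Each length was scaled up to a multiple of 3 where the steps gave none. That all 9766 genes with over 2000 reads had such lengths was thus imposed and is no check. A gene whose true length is no multiple of 3 would have its length and reads overstated.

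Values entered limma 3.58.1, run in R 4.3.3, as log2(FPKM + 1), which understates changes near 1 FPKM, with a mean per stage over all 13 libraries, a mean-variance trend and 8 residual degrees of freedom. On simulated reads (15215 genes tested), it called 87% of 100 genes changed 2-fold, 45% of 100 changed 1.5-fold and 10 unchanged genes between stages 4 and 5. The simulation gave each gene a spread smoothed over genes of like level and changed only these genes. Its rates need not hold for the real libraries, where spread differs by gene and far more genes were called. Exact permutation tests used SciPy 1.17.1. Intervals and floors of reads cover counting error only.

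Named genes were the 10 largest rises and falls on the log2 scale among called genes whose stages did not overlap and whose higher mean reached 1 FPKM, the 5 largest rises and falls in FPKM, and the 3 most abundant genes with an interval within 0.5 of 0. The comparison and this rule were chosen with earlier results of these data known. Planned lists of hormone, cell wall and marker genes need product names and were not applied. Alternatives were other pseudocounts, filters and scalings, library weights, a replicate block, a fit of 5 libraries, voom on recovered reads and leaving out each library.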

Additional observations from a re-analysis of the deposited data

How the results depend on the processing

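No call of the 30 named rises and falls changed sign under the alternatives run. Of 586 alternative values of the 33 named genes, 567 kept direction and side of the threshold; the exceptions stand beside the genes, as do quantile normalization values of Spipo26G0001200 (-0.36) and Spipo9G0036000 (-0.27), which changed sign; Spipo14G0042700 (-0.24) did so uncalled. Median ratio scaling, which moved the median change to 0.0056, gave 53.8% rises among called genes, 2874 falls, 430 falls of at least 2-fold, and 2875 rises and 2151 falls with the same direction between stages 3 and 6. Shares of all tested genes by direction between stages 3 and 6 are not given for that scaling. Falls of at least 4-fold numbered 101 and 107 with pseudocounts of 0.1 and 0.01 FPKM and 87 with voom on recovered reads, which shrink rare genes less. Genes detected at stage 5 and not at stage 4 were 1 when no read was allowed and 7.61 expected after thinning to the smallest library total; those detected at stage 4 alone were 0 when no read was allowed. Leaving out 1 library gave 4981 to 6723 called genes, 1528 to 2276 rises, 3381 to 4612 falls, 769 to 962 and 770 to 912 of at least 2-fold, 208 to 302 and 31 to 42 of at least 4-fold, and 1925 to 3753 genes for the step difference; without a stage 5 library, the remaining one is assumed to vary like the others, and 4 of the 10 largest rises no longer pass the filter. A fit that keeps all genes, chosen after seeing the data, called these 4 with each stage 5 library left out in turn and gave 2162 and 2002 genes for the step difference. The fit of the 5 libraries alone called 6254 genes. Deviations of libraries with equal replicate numbers correlated by 0.061 and -0.099. The deviations of the 2 stage 5 libraries mirror each other, so these values cannot decide whether equal numbers mark pairs. The fit with a replicate block called 7008 genes. Stage 5 has 2 libraries, which limits all values.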
